A study of Mus musculus with 8 samples.

Results

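The machinery that copies DNA and divides a cell is described here through 45 genes, 22 of DNA replication and 23 of mitosis. They were chosen by name for their known roles, and all 45 have a named probe among the 21368 genes named on the array. Hippocampal RNA of 8 female mice was hybridised to 1-colour Agilent arrays, with 1 array per mouse. All mice were nontransgenic littermates of APPswe695/PSEN1dE9 mice on a C57BL/6J background, so none carried the Alzheimer transgenes of the line. The 4 mice of the Hydroxyurea group drank hydroxyurea at 45 mg/kg/day for 10 weeks. At the end, replicates 1 and 2 of this group had an age of 24 weeks and replicates 3 and 4 an age of 19 weeks. The 4 Control mice were untreated and 19 weeks old. Mice shared cages, and which of them shared one is not given, so the spread between mice may hold a cage effect. All arrays lay on 1 slide, the Hydroxyurea arrays in row 2 and the Control arrays in row 1, and slide row and treatment cannot be told apart.

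Before each S phase, MCM helicase rings are loaded on replication origins by ORC, CDC6 and CDT1, and CDC45 and the GINS complex then switch them on at the fork. Cyclin B with CDK1 starts mitosis, the kinetochore and spindle align chromosomes, and the anaphase-promoting complex ends it. Hydroxyurea blocks ribonucleotide reductase, which supplies the deoxynucleotides of the fork. Most cells of the adult hippocampus are postmitotic neurons, and the dividing cells are mainly neural precursors of the dentate gyrus, oligodendrocyte precursors and a few glial and vascular cells. In such bulk tissue a smaller number of dividing cells and less RNA per dividing cell cannot be told apart.

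Both branches of the machinery are known for the elements in their promoters. E2F sites are typical of replication genes, and a CHR element with upstream CCAAT boxes is typical of mitosis genes. The 250 bases before the start of each gene in RefSeq (GRCm38.p6) were searched on both strands for E2F-type letters (TTTCCCGC, TTTCGCGC, TTTGCCGC or TTTGGCGC), for the CHR letters TTTGAA and for CCAAT. Matches may overlap one another. A promoter was in the table for 36 of the 45 genes. E2F letters were in 6 of 17 replication promoters (35.3%) and in 1 of 19 mitosis promoters (5.26%), beside 2.72% of 17492 protein-coding genes. CHR letters were in 7 of 19 mitosis promoters (36.8%) and in 3 of 17 replication promoters (17.6%), beside 16.9% of all. Each of the 7 mitosis promoters with CHR letters also held CCAAT, a combination found in 6.96% of all promoters. CCAAT alone was common, in 17 mitosis promoters (89.5%) and 12 replication promoters (70.6%), beside 39.5% of all. A match describes letters and does not show a bound site.

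The last 150 bases before the start are shown for 8 genes, with every matched motif in capitals. Mcm6 and Cdc6 are examples with E2F letters, and Cdk1, Top2a and Ube2c are examples with CHR letters and CCAAT. Cdk1 was also the 1 mitosis promoter with E2F letters. Mcm2, Mki67 and Cenpu belong to genes whose values are given in each mouse further on. All are written 5′ to 3′ on the strand of the gene.
Mcm6 (chr1:128359706-128359855, minus strand): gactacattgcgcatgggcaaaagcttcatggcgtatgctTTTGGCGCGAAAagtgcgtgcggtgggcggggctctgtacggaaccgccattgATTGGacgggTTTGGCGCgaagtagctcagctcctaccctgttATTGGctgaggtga
Mcm2 (chr6:88898781-88898930, minus strand): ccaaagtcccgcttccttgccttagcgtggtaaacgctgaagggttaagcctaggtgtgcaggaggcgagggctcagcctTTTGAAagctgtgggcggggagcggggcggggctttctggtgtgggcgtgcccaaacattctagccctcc
Cdc6 (chr11:98908001-98908150, plus strand): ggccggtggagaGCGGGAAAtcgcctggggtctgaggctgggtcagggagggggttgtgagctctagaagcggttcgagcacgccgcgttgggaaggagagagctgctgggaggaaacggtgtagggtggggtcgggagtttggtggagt
Cdk1 (chr10:69352913-69353062, minus strand): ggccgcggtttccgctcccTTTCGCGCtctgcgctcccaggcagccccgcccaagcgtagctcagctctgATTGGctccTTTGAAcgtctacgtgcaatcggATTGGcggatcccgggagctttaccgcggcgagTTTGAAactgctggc
Top2a (chr11:99024190-99024339, minus strand): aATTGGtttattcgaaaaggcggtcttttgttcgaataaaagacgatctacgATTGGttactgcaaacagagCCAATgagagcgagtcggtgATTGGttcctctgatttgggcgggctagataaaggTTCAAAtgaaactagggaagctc
Ube2c (chr2:164769779-164769928, plus strand): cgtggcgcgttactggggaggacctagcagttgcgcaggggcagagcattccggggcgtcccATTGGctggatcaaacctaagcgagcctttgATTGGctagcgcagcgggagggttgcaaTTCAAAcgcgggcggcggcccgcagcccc
Mki67 (chr7:135716380-135716529, minus strand): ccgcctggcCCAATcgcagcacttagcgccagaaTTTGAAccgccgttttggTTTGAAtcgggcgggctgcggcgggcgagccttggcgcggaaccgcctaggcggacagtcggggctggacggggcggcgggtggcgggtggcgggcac
Cenpu (chr8:46551919-46552068, plus strand): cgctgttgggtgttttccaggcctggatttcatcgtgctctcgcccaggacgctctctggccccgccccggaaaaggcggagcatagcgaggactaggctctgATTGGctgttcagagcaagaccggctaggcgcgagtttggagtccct
In Mcm6, E2F letters began 110, 106 and 47 bases before the start, and the first 2 overlap as a run on opposite strands. Cdk1 held E2F letters 131 bases before the start, CHR letters 71 and 15 bases before it and CCAAT 80 and 48 bases before it. In Ube2c the CHR letters began 29 bases before the start, with CCAAT at 88 and 57 bases, and in Top2a at 23 bases, with CCAAT at 149, 98, 78 and 58 bases. Cenpu held only 1 CCAAT in this stretch, 47 bases before the start, and Mcm2 only CHR letters at 70 bases.

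Levels are given as a scaled log2 signal, which is the log2 processed signal less that array's 75th percentile. Levels of different probes are not comparable, so only detection and differences within a probe are compared. The 75th percentile itself was 1052 on Hydroxyurea 2, 1680 to 2162 on the other Hydroxyurea arrays and 1677 to 2417 on the Control arrays. Of all probes, 59.6% to 69.0% were well above background on the Hydroxyurea arrays and 62.1% to 76.7% on the Control arrays. The lowest scaled log2 signal that counted as well above background was -6.18 to -5.04 on the Hydroxyurea arrays and -6.59 to -5.77 on the Control arrays. This lowest value was higher on Hydroxyurea 1 to 3 than on any Control array. On Hydroxyurea 4, at -6.18, it was lower than on Control 1 at -5.77 and Control 2 at -6.15. It is not a fixed limit, since Top2a at -5.94 on Hydroxyurea 4 was not well above background. The share of probes well above background was 62.4% on Hydroxyurea 3 and 62.1% on Control 1. Replicate spots on Control 1 varied by a median of 12.1%, against 3.19% to 3.56% on the other arrays of both groups.

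Most of the division machinery gave a signal in this largely postmitotic tissue, as did most genes named on the array. For 39 of the 45 genes, 4 or more of the 8 arrays had the probe well above background, which made them testable, and for 36 all 8 arrays did. That was the case for 20 of 22 replication genes and 16 of 23 mitosis genes. By the same rule, 16618 of the 21368 genes named on the array were testable, and 15157 had all 8 arrays well above background. The plot of all 45 genes by mouse shows where the gaps lie.

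**Figure D1:**
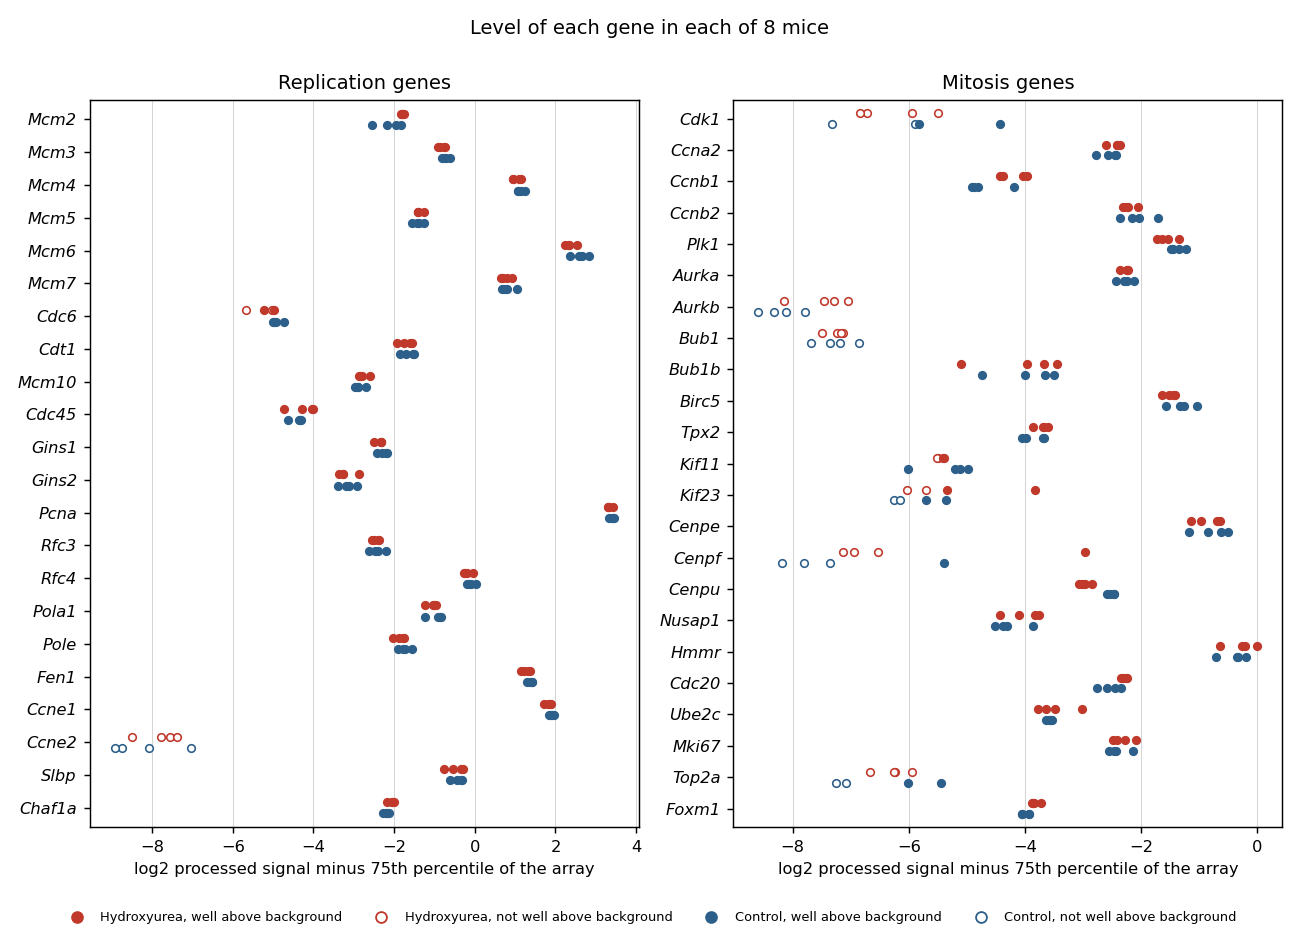
Scaled log2 signal of each gene in each of the 8 mice, for replication genes on the left and mitosis genes on the right. Hydroxyurea mice are red and drawn above the Control mice in blue, and open circles mark arrays where the probe was not well above background. Open circles lie with Ccne2, Cdc6 and several mitosis genes such as Aurkb, Bub1, Cdk1 and Top2a.

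Of the 6 genes that were too dim to test, 3 encode kinases of mitosis. Ccne2, which encodes cyclin E2, Aurkb, the kinase of the chromosomal passenger complex, and Bub1, a spindle checkpoint kinase, were well above background on 0 of 8 arrays. The Bub1 probe is printed 10 times per array, and 6 of its 80 spots were well above background. Cdk1, the kinase that drives entry into mitosis, has 3 probes. The brightest, which stands for the gene, was well above background on 0 Hydroxyurea and 2 Control arrays, the second on 1 array of each group and the third on 0 of 8. Top2a, the topoisomerase that untangles sister chromatids, was likewise detected on 0 Hydroxyurea and 2 Control arrays. Neither gene passed the filter for testing, so no fold is given for them. The Control mean was -5.87 for Cdk1 and -6.45 for Top2a. The lowest scaled log2 signal well above background was higher than both on Hydroxyurea 1 to 3, at -5.22, -5.04 and -5.44. On Hydroxyurea 4, at -6.18, it was higher than the Top2a mean but lower than the Cdk1 mean. Top2a read -5.94 on that array and was still not well above background. The part of array sensitivity in these detection counts was not tested. Cenpf, a large kinetochore protein, was detected on 1 array of each group.

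Cenpf gave one isolated value. Its scaled log2 signal was -2.96, -7.14, -6.53 and -6.95 in Hydroxyurea 1 to 4, against -7.81, -8.19, -7.36 and -5.39 in Control 1 to 4. Hydroxyurea 1 stood far above every other mouse, on a probe with 1 spot per array. Its signal there was 245.5, against 5.7 to 45.7 on the other 7 arrays. Kif23, a kinesin of the midbody, had its highest value in the same mouse, at -3.83, with -6.03 to -5.35 in the other Hydroxyurea mice and -6.26 to -5.37 in Control mice. That probe also has 1 spot per array, and its signal was 134.3 in Hydroxyurea 1 and 16.1 to 58.5 elsewhere.

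Of the genes just inside the filter, Kif23 was detected on 2 arrays of each group, Kif11, the motor that separates spindle poles, on 1 Hydroxyurea and 4 Control arrays, and Cdc6 on 2 Hydroxyurea and 4 Control arrays. Kif11 and Cdc6 passed mainly through their Control arrays. Just outside it were Cdk1, Top2a and Cenpf, whose representative probe was detected on 2 of 8 arrays.

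Between treated and untreated mice, 0 of the 39 genes tested passed limma at an adjusted p under 0.05, where 0% of the 16618 genes tested did. Adjusted p-values ran from 0.452 to 0.984. At an unadjusted p under 0.05 there were 4 of 39 genes, beside 9.89% of all genes. Of these, 3 had higher values after treatment (Cdc20, Foxm1 and Ccnb1), where 3.53% of all genes did, and 1 had a lower value (Cenpu), where 6.36% did. The groups did not overlap for 4 of the 39, Cdc20, Foxm1 and Mcm2 with higher values and Cenpu with lower ones, beside 7.5% of all genes. Of all 16618 genes, 396 had higher values without overlap and 850 lower ones. The mean was higher in treated mice for 16 of 39 genes, or 41.0%, and for 48.7% of all genes. The median log2 difference was -0.05 over the 39 and -0.004 over all genes. The counts over both directions, the share with a higher mean and the median lie near those of the array as a whole. The split by direction rests on 4 genes by either count, of which 3 were higher here, while on the array most such genes were lower. Foxm1 and Ccnb1 turned sign in 2 and 1 of the other settings. All 4 genes at an unadjusted p under 0.05 were among the 18 mitosis genes tested. Whether these splits differ from those of the array was not tested.

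The 95% interval of the difference lay within a 1.5-fold change in either direction for 31 of the 39 genes, 79.5%, and for 77.7% of all genes tested. It did so for 19 of 21 replication genes and 12 of 18 mitosis genes. The exceptions among replication genes were Mcm2 and Cdc6.

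**Figure D2:**
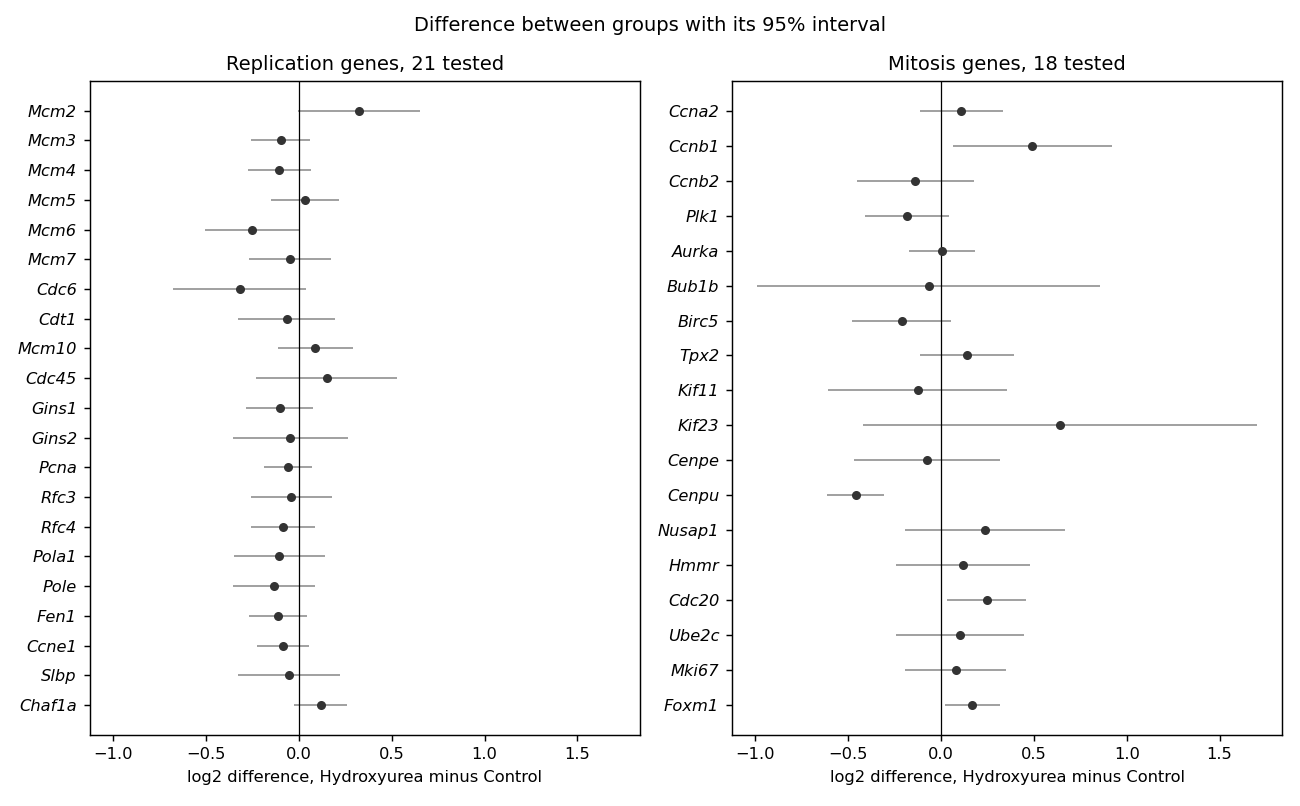
Log2 difference, Hydroxyurea minus Control, for each of the 21 replication genes and 18 mitosis genes tested, with its 95% interval from the limma fit on 4 mice per group. Replication genes lie between -0.32 and 0.33 with mostly narrow intervals, and mitosis genes between -0.46 and 0.64, with the widest intervals at Bub1b and Kif23.

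Replication genes had values slightly below those of Control more often than above. Of 21 tested, 16 had a lower mean and 5 a higher one, with a median log2 difference of -0.06, and none passed even at an unadjusted p under 0.05. With each array centred on its median, the count was 17 lower and 4 higher, and with array weights it was 13 lower and 8 higher. Without Control 1 and Hydroxyurea 2 together it was 12 lower and 9 higher.

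The helicase and its loaders come first at an origin. Of 8 licensing genes, 6 had a lower mean and 2 a higher one, with a median of -0.08. The subunits of the MCM ring, which work as 1 complex, had means on both sides of Control. Mcm2 read -1.84, -1.81, -1.75 and -1.82 in Hydroxyurea 1 to 4, against -2.54, -1.96, -2.17 and -1.84 in Control 1 to 4. The treated mice lay close together and above every Control mouse, but Hydroxyurea 1 and Control 4 were less than 0.01 apart, and Control 1 lay lowest. The difference was 0.33 ± 0.14 (SE, n = 4 per group; 95% interval -0.004 to 0.65; limma adjusted p = 0.509), and it was 0.19 without Control 1, the noisy array.

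Mcm6 had values of 2.34, 2.54, 2.33 and 2.24 in Hydroxyurea 1 to 4, against 2.59, 2.66, 2.37 and 2.83 in Control 1 to 4. The groups overlapped, since Hydroxyurea 2 lay above Control 3. Its difference was -0.25 ± 0.11 (SE, n = 4 per group; 95% interval -0.50 to 0.006; limma adjusted p = 0.512), and it was -0.17 without Control 4 and -0.33 without Control 3. The other subunits differed less. Mcm3 had -0.10 ± 0.07, Mcm4 -0.10 ± 0.07, Mcm5 0.03 ± 0.08 and Mcm7 -0.05 ± 0.10 (SE, n = 4 per group).

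The loader Cdc6 was dim. It read -5.68, -5.03, -4.98 and -5.22 in Hydroxyurea 1 to 4, against -5.01, -4.97, -4.93 and -4.73 in Control 1 to 4. Hydroxyurea 1 was lowest, and the probe was not well above background in Hydroxyurea 1 and 2. The groups overlapped. The difference was -0.32 ± 0.16 (SE, n = 4 per group; limma adjusted p = 0.541), and a second, dimmer probe of the gene had -0.09. Cdt1, the partner of Cdc6 in loading, had -0.06 ± 0.11, and the sign turned to 0.07 with 19-week mice only.

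At the fork, 8 of 10 genes had a lower mean and 2 a higher one, with a median of -0.07, and all 10 intervals lay within 1.5-fold. Pcna encodes the sliding clamp that tethers polymerases. Its values were 3.31, 3.31, 3.33 and 3.42 in Hydroxyurea 1 to 4, against 3.33, 3.42, 3.41 and 3.45 in Control 1 to 4. The groups overlapped and the spread was small in both, with an SD of 0.053 in treated and 0.052 in Control mice. The difference was -0.06 ± 0.06 (SE, n = 4 per group; 95% interval -0.19 to 0.07; limma adjusted p = 0.753). The sign turned to 0.06 with normexp background correction.

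The clamp loader subunits Rfc3 and Rfc4 had -0.04 ± 0.10 and -0.08 ± 0.07 (SE, n = 4 per group). Pola1, a subunit of the polymerase that starts new strands, had -0.10 ± 0.11, and Pole, the polymerase of the leading strand, -0.13 ± 0.10. Fen1, the nuclease that trims Okazaki fragments, had -0.11 ± 0.07. Of the genes that activate the helicase, Mcm10 had 0.09 ± 0.09, Cdc45 0.15 ± 0.16, Gins1 -0.10 ± 0.08 and Gins2 -0.04 ± 0.13. The 95% interval of each of these differences included 0.

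Second probes did not always show the same direction. Rfc4 had 0.03 on its second probe, detected on all 8 arrays. Pole had 1.09 on a probe that was well above background on 2 Hydroxyurea and 0 Control arrays, where Hydroxyurea 2 read -3.61 and the other 7 mice -7.60 to -5.87. With the mean of all probes, Pole therefore stood at 0.48.

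Of the genes for S-phase entry and chromatin supply, Ccne1, which encodes cyclin E1, had -0.08 ± 0.06, and -0.32 on a second probe that was detected on all 8 arrays. Slbp, which binds the stem-loop of histone mRNA, had -0.05 ± 0.12. Chaf1a, the large subunit of the histone chaperone CAF-1, had 0.12 ± 0.06 (SE, n = 4 per group; limma adjusted p = 0.552). Its Hydroxyurea values of -2.19 to -2.02 overlapped the Control values of -2.27 to -2.14.

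Mitosis genes had the larger single differences and the wider spread. Of 18 tested, 11 had a higher mean in treated mice and 7 a lower one, with a median log2 difference of 0.09. With median centring the count was 9 higher and 9 lower, with normexp 9 and 9, and 5 higher and 13 lower with the values the authors deposited as a table, so the majority depended on the scaling. The plot of values by mouse shows the genes of both branches that are given in full.

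**Figure D3:**
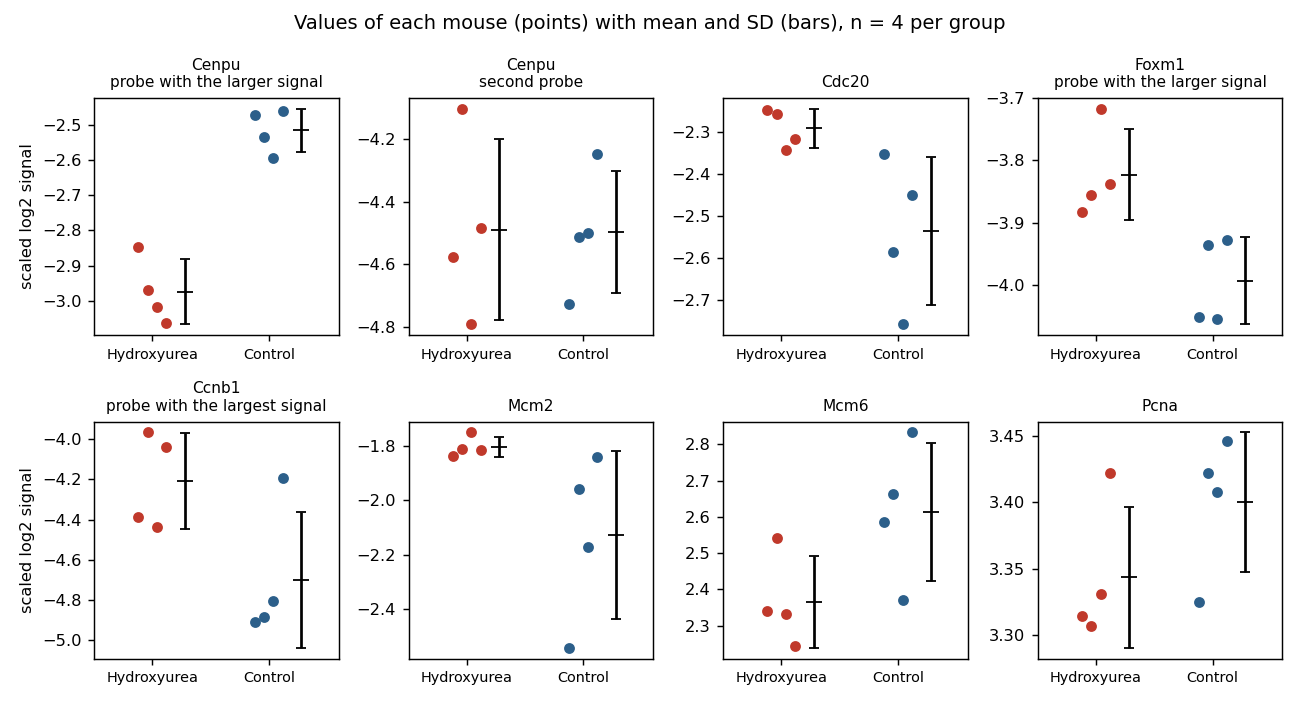
Scaled log2 signal in each Hydroxyurea mouse (red) and Control mouse (blue) for Cenpu on its 2 probes, Cdc20, Foxm1, Ccnb1, Mcm2, Mcm6 and Pcna, with mean and SD for n = 4 per group. The vertical axes differ between panels. The brighter Cenpu probe separates the groups by -0.46 while the second one does not, and Cdc20, Foxm1 and Mcm2 lie higher in every treated mouse.

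Cenpu had the smallest p of all the members. It encodes a constitutive centromere protein that helps recruit PLK1 to kinetochores. Its scaled log2 signal was -2.85, -2.97, -3.02 and -3.06 in Hydroxyurea 1 to 4, against -2.47, -2.54, -2.59 and -2.46 in Control 1 to 4. Every treated mouse lay below every Control mouse, with a gap wider than the range of either group. The difference was -0.46 ± 0.07 (SE, n = 4 per group; 95% interval -0.61 to -0.30), 0.728-fold, with a limma p of 0.000136 that ranked 3 of 16618 genes and an adjusted p of 0.452. It stayed between -0.54 and -0.38 under each scaling on a log2 scale and with normexp, and was -0.52 with 19-week mice only.

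A second Cenpu probe, assigned to the same transcript accession, gave another answer. It read -4.58, -4.10, -4.79 and -4.48 in Hydroxyurea 1 to 4, against -4.73, -4.51, -4.50 and -4.25 in Control 1 to 4. Both groups covered nearly the same range, and the difference was 0.01 although the probe was well above background on all 8 arrays. The mean of both probes had -0.23 ± 0.09. Which part of the transcript each probe reads was not examined here.

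Cyclins and kinases were split, with 3 of 6 tested genes higher and 3 lower and a median of -0.03. Ccnb1, the cyclin B1 that activates CDK1, read -4.38, -3.97, -4.44 and -4.04 in Hydroxyurea 1 to 4, against -4.91, -4.89, -4.81 and -4.20 in Control 1 to 4. Control 4 lay within the treated range, and the other 3 Control mice below it. The difference was 0.49 ± 0.19 (SE, n = 4 per group; 95% interval 0.06 to 0.92; limma adjusted p = 0.491). It was 0.10 with normexp and -0.13 with the mean of all probes. The 2 other probes of Ccnb1 had 0.08 and -0.95, each well above background on 1 of 8 arrays.

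The remaining members of that set differed little or varied widely. Ccna2, cyclin A2 of S phase and G2, had 0.11 ± 0.10 and Ccnb2, cyclin B2, -0.14 ± 0.14 (SE, n = 4 per group). Plk1, a kinase of mitotic entry and of the spindle, had -0.18 ± 0.10 (limma adjusted p = 0.563), and Aurka, the kinase of centrosomes, 0.006 ± 0.08. Bub1b, a checkpoint protein, read -5.10 in Hydroxyurea 1 and -3.97 to -3.45 in the other treated mice, against -4.74 in Control 2 and -4.01 to -3.51 among its 3 group mates. One low mouse in each group gave a wide 95% interval of -0.99 to 0.86 around -0.07.

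Among spindle, kinetochore and midbody genes, 4 of 8 tested had a higher mean and 4 a lower one, with a median of 0.02. Birc5, the passenger protein survivin, had -0.21 ± 0.11 (SE, n = 4 per group; limma adjusted p = 0.566), and 0.08 and -0.37 on other probes. Tpx2, which nucleates spindle microtubules, had 0.14 ± 0.11, Nusap1, which bundles them, 0.24 ± 0.19, and Hmmr, a spindle pole protein, 0.12 ± 0.16. The kinetochore motor Cenpe had -0.08 ± 0.17 and Kif11 -0.13 ± 0.21. Kif23 had 0.64 ± 0.46 with a 95% interval of -0.42 to 1.70, the widest of the 39, and it rested on the single value of Hydroxyurea 1. Without that mouse its difference was 0.17.

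The genes of mitotic exit and its regulators had a higher mean in treated mice in 4 of 4 tested, with a median of 0.14. It was 3 of 4 with median centring, where Mki67 turned, 3 of 4 with normexp, where Foxm1 turned, and 1 of 4, Cdc20, with the values the authors deposited as a table. Cdc20 activates the anaphase-promoting complex. It read -2.25, -2.26, -2.34 and -2.32 in Hydroxyurea 1 to 4, against -2.35, -2.59, -2.76 and -2.45 in Control 1 to 4. All treated mice lay above all Control mice, with Hydroxyurea 3 and Control 1 less than 0.01 apart. The difference was 0.25 ± 0.09 (SE, n = 4 per group; 95% interval 0.03 to 0.46; limma adjusted p = 0.491), and it was 0.17 without Control 3.

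Foxm1, the transcription factor that drives G2 and M genes, read -3.88, -3.86, -3.72 and -3.84 in Hydroxyurea 1 to 4, against -4.05, -3.94, -4.05 and -3.93 in Control 1 to 4. The groups did not overlap, and both ranges were narrow. Its difference was 0.17 ± 0.06 (SE, n = 4 per group; 95% interval 0.02 to 0.32; limma adjusted p = 0.491). The sign turned to -0.03 with normexp, and it was -0.003 on the z scale of the deposited value table. A second Foxm1 probe was not well above background on any array.

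Mki67, the proliferation marker Ki-67, read -2.48, -2.09, -2.41 and -2.28 in Hydroxyurea 1 to 4, against -2.43, -2.55, -2.47 and -2.13 in Control 1 to 4. Both groups covered nearly the same range. The difference was 0.08 ± 0.12 (SE, n = 4 per group; 95% interval -0.19 to 0.35; limma adjusted p = 0.834), 0.36 on a second probe and -0.001 with median centring. Ube2c, the ubiquitin-conjugating enzyme of the same complex that CDC20 activates, had 0.11 ± 0.15, and 0.26 on its second probe.

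The direction of the differences moved with brightness over the whole array. Among all genes with a scaled log2 signal between -3 and -2, 58.0% had a higher mean in treated mice and the median difference was 0.04. Between -4 and -3 the percentage was 58.8 and between -5 and -4 it was 58.2. Above 1 it was 41.3, with a median of -0.02. Of the 18 mitosis genes tested, 12 lay between -5 and -2, where most genes had higher values, and 0 lay above 0. Of the 21 replication genes, 6 lay above 0. Another 4 lay between -3 and -2, 5 between -2 and -1, 3 between -1 and 0, and 1 in each dimmer bin. Of all genes, 55.7% had a higher mean between -2 and -1, and 50.2% between -1 and 0. These bins sort probes by signal and do not rank the expression of the genes. The part of brightness in the opposite medians of replication and mitosis genes was not tested.

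**Figure D4:**
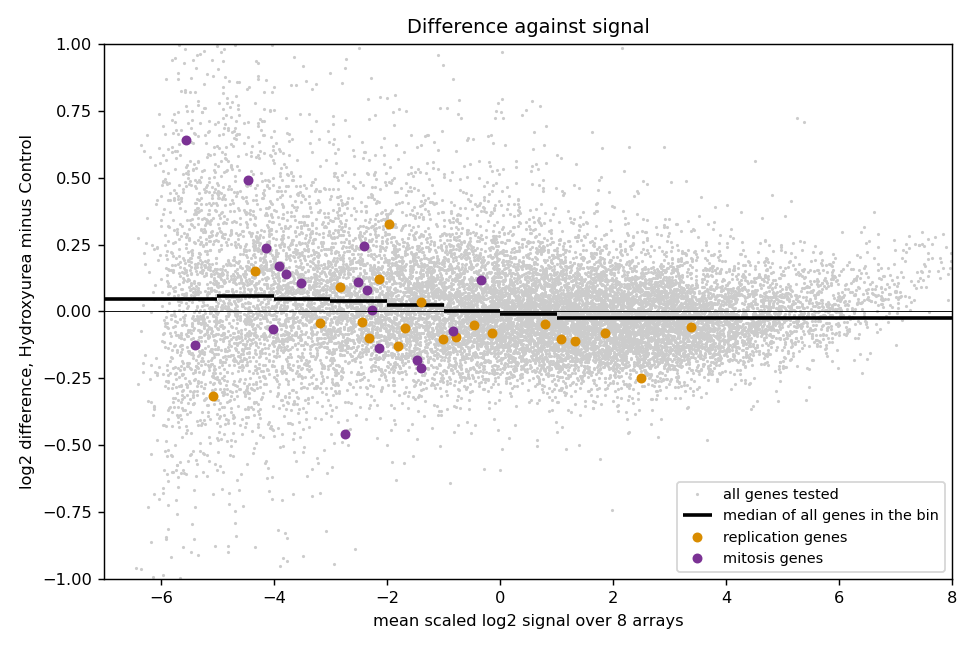
Log2 difference, Hydroxyurea minus Control, against the mean scaled log2 signal over 8 arrays. Grey points are all genes tested, black bars the median of all genes in each bin of signal, orange points the replication genes and purple points the mitosis genes. The axis ends at a difference of 1 in either direction, and genes beyond it are not drawn. The black bars lie above 0 for dim genes and below it for genes above 1, and none of the mitosis probes has a signal above 0.

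A score per mouse, the mean over the tested genes of the deviation from each gene's own mean, summarises each branch. For replication genes it was -0.016, -0.041, -0.001 and -0.034 in Hydroxyurea 1 to 4, against 0.003, 0.013, 0.008 and 0.067 in Control 1 to 4. The groups did not overlap, but Hydroxyurea 3 and Control 1 were less than 0.01 apart. They overlapped with median centring, without the filter on dim probes, with genes detected on all 8 arrays and with the mean of all probes. For mitosis genes the score was 0.046, 0.037, 0.036 and 0.002 in Hydroxyurea 1 to 4, against -0.081, -0.161, 0.030 and 0.090 in Control 1 to 4. The treated mice lay inside the wider Control range.

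**Figure D5:**
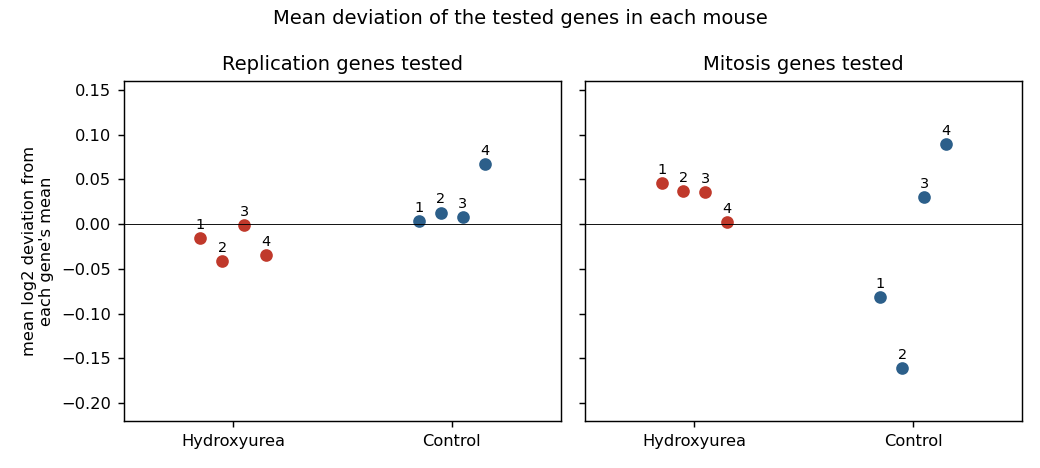
Mean log2 deviation from each gene's mean over 8 mice, for the 21 replication genes and the 18 mitosis genes tested. Points are single mice, numbered by replicate, with Hydroxyurea left of Control. The replication scores of treated mice lie just below those of Control mice, between -0.041 and -0.001, and the mitosis scores overlap.

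Other genes of the same pathways, taken from lists chosen with earlier results known, gave no call either. No gene of the 9 pathway lists passed the adjusted threshold. Over all genes tested, 48.7% had a higher mean, and the groups did not overlap for 7.5%. Origin recognition and firing genes had 2 higher and 9 lower means of 11 tested, with a median of -0.10. Of these, Mcmbp, an MCM-binding protein, had -0.19 ± 0.08 (SE, n = 4 per group; limma adjusted p = 0.494) and Orc4, an origin recognition subunit, -0.18 ± 0.08. The 26 other fork genes were split, with 13 higher and 13 lower and a median of -0.003. Clspn, the checkpoint mediator claspin, had 0.37 ± 0.16 but was well above background on 2 of 4 Hydroxyurea arrays, and Atad5, which unloads PCNA, had -0.17 ± 0.06 without overlap.

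Condensin, cohesin and separation genes had 3 higher and 12 lower means of 15 tested, with a median of -0.09. Over all genes tested, 51.3% had a lower mean. Among those with a scaled log2 signal above 1, 41.3% had a higher one, and the part of brightness in this list was not tested. The smallest p-values of the list were those of Smc4 of condensin at -0.23 ± 0.07 and Smc3 of cohesin at -0.18 ± 0.06 (SE, n = 4 per group; limma adjusted p = 0.472 and 0.477). Both had groups that did not overlap, as did 7.5% of all genes. Other chromatin assembly genes had 5 of 7 higher, with a median of 0.11. Nasp, a histone chaperone, had -0.12 ± 0.06. Hells, a chromatin remodeller of proliferating cells, stood at -3.90 ± 0.05 in Hydroxyurea and -3.48 ± 0.17 in Control mice (SD, n = 4 each), a difference of -0.42 ± 0.09 (SE; limma adjusted p = 0.452).

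Other kinetochore and checkpoint genes had 13 of 22 higher, with a median of 0.02, and other spindle and cytokinesis genes 12 of 20, with a median of 0.006. The MIS12 complex, which joins the centromere to the outer kinetochore, had Dsn1 at -0.28 ± 0.08 and Mis12 at -0.18 ± 0.07 (SE, n = 4 per group; limma adjusted p = 0.452 and 0.491), each without overlap. The kinesins Kif4 and Kif18a had opposite signs, at 0.48 ± 0.19 and -0.44 ± 0.18, and Kif4 was well above background on 2 of 4 Hydroxyurea arrays. CDK, RB and E2F genes had 14 of 27 higher, with a median of 0.02. E2f3, an activator of S-phase genes, had -0.32 ± 0.10, and Pkmyt1, a kinase that inhibits CDK1, had 0.26 ± 0.10.

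Neither CDK inhibitors nor genes of the anaphase-promoting complex showed a common direction. CDK inhibitors had 3 of 8 higher, with a median of -0.02. Cdkn3, a phosphatase that acts on CDKs, had 0.53 ± 0.24 and Cdkn1b, the inhibitor p27, -0.08 ± 0.06 (SE, n = 4 per group). Genes of the anaphase-promoting complex and its inhibitors had 8 of 15 higher, with a median of 0.02. Its subunits Anapc1 and Cdc26 had -0.14 ± 0.08 and -0.18 ± 0.09. The target of the drug itself had Rrm1, the large subunit of ribonucleotide reductase, at 0.01 ± 0.08, Rrm2, the small subunit of S phase, at -0.08 ± 0.08 and Rrm2b, its p53-induced counterpart, at -0.24 ± 0.09 (limma adjusted p = 0.491).

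Within the treated group, the 24-week mice were set against the 19-week mice, with n = 2 per age. All treated mice drank hydroxyurea for the same number of weeks, so age at treatment start and age at the end cannot be told apart here. Control mice were all 19 weeks old, so the 24-week treated mice had no Control mice of their age. The comparison of all treated with all Control mice is therefore not matched for age. Of the 39 genes, 20 had a higher mean at 24 weeks and 19 a lower one, with a median log2 difference of 0.009. By limma, 0 passed at an adjusted p under 0.05, where 0% of all genes did, and 0 at an unadjusted p under 0.05, where 2.7% of all genes did. Bub1b had -0.97 ± 0.48, since the low Hydroxyurea 1 was 24 weeks old (SE, n = 2 per age). Nusap1 had 0.47 ± 0.22 and Cdt1 -0.27 ± 0.14, and the limma adjusted p of every member was 1.

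The tissue label held against its markers, with 14 of 14 genes of hippocampal neurons, such as Prox1 of granule cells and Camk2a, well above background on all 8 arrays. Their log2 of the summed scaled signal was 6.58 to 6.87 in Hydroxyurea and 6.49 to 6.88 in Control mice. Cells that could divide had overlapping levels. Progenitor and newborn neuron genes had 9 of 14 higher means, a median of 0.14 and summed levels of 4.40 to 4.75 in Hydroxyurea and 4.13 to 4.70 in Control mice. That summed level is mostly Hes5 and Vim. The groups did not overlap for 2 of the 14, beside 7.5% of all genes. These 2 are named here after their values were seen, and their signs were opposite. Neurod1 had -0.28 ± 0.08 and Sox4 0.26 ± 0.10 (SE, n = 4 per group; limma adjusted p = 0.452 and 0.491). Oligodendrocyte precursor genes had 4 of 10 higher and levels of 5.09 to 5.49 and 5.09 to 5.53 in these groups. Microglial genes had 8 of 12 higher, at 6.89 to 7.33 and 6.82 to 7.02, and endothelial and mural genes 6 of 12, at 5.20 to 5.50 and 5.16 to 5.68.

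Genes of neighbouring tissue and of blood had a higher mean in treated mice more often than all genes tested, of which 48.7% did. Choroid plexus genes had 12 of 12 higher means and a median of 1.28, with overlapping summed levels of 5.42 to 8.46 in Hydroxyurea and 4.94 to 7.34 in Control mice. Blood and leukocyte genes had 11 of 12 higher and a median of 0.29, at overlapping levels of 6.09 to 7.11 in Hydroxyurea and 6.26 to 6.71 in Control mice, and Ms4a1 of B cells was not well above background on any array. That summed level is mostly haemoglobin, and Hba-a1 alone had 6.45 ± 0.49 in Hydroxyurea and 6.39 ± 0.20 in Control mice (SD, n = 4 each). The groups did not overlap for 3 of the 12, beside 7.5% of all genes. Named here after their values were seen, they were Ltf and Camp of neutrophil granules at 0.69 ± 0.12 and 0.36 ± 0.08, and Cd3e of T cells at 0.31 ± 0.11 (SE, n = 4 per group; limma adjusted p = 0.452, 0.452 and 0.484). Thalamic genes had 8 of 9 higher and a median of 0.26, which turned on 1 mouse. Their summed level was 4.36 in Hydroxyurea 3 and 2.51 to 2.83 in the other treated mice, against 2.57 to 2.86 in Control mice. The part of these tissues in the values of the division genes was not tested.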

How the data were processed

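Hippocampal RNA of 8 mice was read by Feature Extraction 12.0.3.1, per the file headers. For each spot the authors deposited a processed signal intensity, background-subtracted and not normalized between arrays, a median intensity, a local background intensity, and outlier and detection flags. Their deposited value table is a z score of log signal per array. It differed by at most 0.005 from a z score recomputed here, had column medians of -0.21 to -0.17, and served only for sign and counts.

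The log2 processed signal was scaled by subtracting each array's 75th percentile over non-control spots. Outlier spots were dropped, and spots of 1 probe were averaged. RefSeq accessions named 28331 of 55681 probes through the GRCm38.p6 gene table, and 27350 stayed unnamed. For 5754 genes with several probes the brightest on average was used. Testing required detection well above background on 4 or more arrays, and values on 6 or more. No spot was saturated.

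Treated and untreated mice were compared in limma 3.58.1 (lmFit, eBayes; R 4.3.3). Tests were two-sided, and p-values were adjusted by Benjamini-Hochberg over 16618 genes at 0.05. The age comparison used 3 group means over all arrays. Signal over background and 4 arrays per group limit the precision, and arrays correlated at 0.981 to 0.997 across genes. In simulated data of 16585 genes the treatment fit found 45.8% of 1.5-fold, 86.8% of 2-fold and 90.0% of 3-fold changes, and called 4 unchanged genes. For age these shares were 39.4%, 51.4% and 79.0%, with 6 unchanged genes called. The simulation drew independent normal noise for each gene, with no effect shared across an array. Changed genes were picked at random from all 16585, so these shares are not those of the members. The median SE of the treatment difference was 0.095 for replication genes, 0.127 for mitosis genes and 0.105 for all genes tested.

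The members and lists were chosen with earlier results of these data known. All members are named, and of each pathway list the 2 tested genes with the smallest unadjusted p. The replicate numbers did not pair the mice: deviations of same-numbered mice from their group means correlated at 0.05, 0.20, -0.21 and -0.06 across genes. Alternatives covered scaling by median or quantiles, normexp, the deposited z scores, filters, probe rules, 19-week mice only, the replicate block, variance models and left-out arrays. Of the names listed, Kif14, Sgol1, Sgol2 and Tbr2 matched no named probe, and Tbr2 is an older name of Eomes, which was listed and matched.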

Additional observations from a re-analysis of the deposited data

Results flagged for a closer look

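Among 132 groups of 4 mice examined, 7 held a mouse far from its group, and chance flags about 1 in 20 groups. Mcm5 was -1.26 in Hydroxyurea 4, with -1.41 in each of the other treated mice. Gins1 was -2.50 in Hydroxyurea 3, with -2.34 to -2.32 in the others. Aurka was -2.37 in Hydroxyurea 4, with -2.24 to -2.22 in the others. Cenpf, not tested for being dim, was -2.96 in Hydroxyurea 1, with -7.14 to -6.53 in the others. Cdc45 was -4.64 in Control 3, with -4.35 to -4.32 in the others. Ccnb1 was -4.20 in Control 4, with -4.91 to -4.81 in the others, and its log2 difference was 0.66 without that mouse. Rrm2b was -1.49 in Control 1, with -1.15 to -1.13 in the others.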

How the results depend on the processing

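The count of genes called between Hydroxyurea and Control was 0 in all settings run. The median of replication genes was -0.145 with median centring and -0.025 on the z scale of the value table, and -0.095 to -0.041 when each mouse was left out. The median of mitosis genes was 0.011 with median centring, -0.013 with normexp and -0.012 with the value table, and 0.012 (without Hydroxyurea 2) to 0.122 when each mouse was left out. With the replicate block the medians were -0.06 and 0.09, 0 genes were called and 3 mitosis genes in place of 4 had an unadjusted p under 0.05. Age calls were 0 to 7, with 1 without Hydroxyurea 3 and 7 without Hydroxyurea 4. The number of genes at unadjusted p under the threshold was 1643, and was 2483 with no filter, 3097 with array weights and 2522 without Control 1. Of 39 members, 17 kept their sign in every other setting that gave a value, 20 settings or, for dim genes, 19, as did 20 of 21 other named genes. The causes were not tested.

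Signs turned as follows. Median centring gave Mcm5 -0.047, Aurka -0.075, Mki67 -0.001 and Rrm1 -0.07, and quantile scaling gave Aurka -0.038. Normexp gave Pcna 0.059, Aurka -0.109, Kif11 0.002, Nusap1 -0.029 and Foxm1 -0.032. The value table gave Mcm5 -0.012, Mcm10 -0.01, Cdc45 -0.008, Pcna 0.015, Ccna2 -0.005, Aurka -0.025, Tpx2 -0.005, Ube2c -0.013, Mki67 -0.012, Foxm1 -0.003 and Rrm1 -0.002. The mean of all probes gave Pole 0.48 and Ccnb1 -0.127. Using 19-week mice only gave Cdt1 0.069, Aurka -0.031, Bub1b 0.419 and Hmmr -0.03. Array weights gave Mcm5 -0.01, Mcm7 0.027, Cdt1 0.06, Rfc3 0.012, Slbp 0.034, Aurka -0.04, Bub1b 0.229 and Kif11 0.088. Without Control 1 and Hydroxyurea 2 together, Mcm7 was 0.067, Cdt1 0.05, Rfc3 0.048, Slbp 0.071, Aurka -0.016, Bub1b 0.064, Ube2c -0.027 and Mki67 -0.006. Leaving out each mouse gave Mcm5 -0.016 to 0.085, Mcm7 -0.095 to 0.028, Cdt1 -0.133 to 0.012, Gins2 -0.15 to 0.032, Rfc3 -0.106 to 0.035, Slbp -0.116 to 0.041, Aurka -0.046 to 0.054, Bub1b -0.321 to 0.284, Cenpe -0.204 to 0.018, Ube2c -0.045 to 0.203 and Rrm1 -0.02 to 0.068.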
